A study of Mus musculus with 4 samples.

Results

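In follicular B cells of the mouse spleen, 10 genes of the NOD-like receptor (NLR) and inflammasome group were followed: *Nod1*, *Nod2*, *Ripk2*, *Xiap*, *Nlrc3*, *Nlrc5*, *Nlrx1*, *Nlrp3*, *Pycard* and *Casp1*. They were chosen by name, with earlier results of these data known, and all 10 were among the 23305 genes listed for every library. RNA was sequenced from WT C57BL/6 mice and from *Ets1*-/- mice on a mixed C57BL/6 x 129Sv background, with 2 biological replicates per genotype and 4 libraries in all. All mice were female, and their age at this sort and the number of mice behind a replicate are not given in the sources used here. Resting cells were sorted as B220+, CD23-high and CD21-low, without surface CD80 and without switched isotypes (IgA, IgE and the IgG subclasses). Ets1 is a transcription factor that holds B cells in a quiescent state, and the comparison asked which genes need it for their normal expression. The mutation was present in every cell of the mouse, and strain and genotype changed together, so their parts in any difference cannot be told apart.

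NLRs are cytosolic sensors. NOD1 and NOD2 recognise fragments of bacterial peptidoglycan and recruit the kinase RIPK2, which is ubiquitinated by XIAP and other ligases and then activates NF-κB. NLRP3 instead assembles an inflammasome with the adaptor ASC (encoded by *Pycard*) and caspase-1, which matures IL-1β and IL-18 and cleaves gasdermin D. A further group of NLRs works inside signalling or transcription, among them NLRC5, which activates MHC class I genes.

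The deposited unit was FPKM, a fragment count divided by transcript length and by library size, so levels of different genes can be set side by side. The step that 1 fragment is worth, read from genes with very low values, put the deepest library at about 2.02 times the depth of the shallowest, with 1 deeper and 1 shallower library in each genotype. The 8 B cell markers looked up had a summed level of 6625 and 6415 FPKM in WT and of 5298 and 6278 FPKM in *Ets1*-/- libraries. Both *Ets1*-/- sums were thus below both WT sums. Per library, 11 T cell markers summed to 98.9 to 128 FPKM. The 14 neutrophil markers summed to between 99.4 and 121 FPKM in WT and between 713 and 2591 FPKM in *Ets1*-/- libraries. *Ets1* itself had an FPKM of 231 and 275 in WT and of 229 and 229.8 in *Ets1*-/- B cells, a log2 fold change of -0.14 (limma BH-adjusted p = 0.860, with BH for the Benjamini-Hochberg adjustment over all genes tested). A value for the whole gene does not show which exons were read, so *Ets1* does not check the genotype labels here.

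Expression of the 10 genes in WT B cells covered a wide range. *Casp1* was highest, with a mean of 47.8 FPKM, followed by *Nlrc5* at 23.2 FPKM. *Ripk2* (18.4 FPKM), *Pycard* (17.4 FPKM) and *Nod1* (15.9 FPKM) came next, and the replicate ranges of *Ripk2* and *Pycard*, and of *Pycard* and *Nod1*, overlapped. *Xiap* stood at 13.4 FPKM and *Nlrc3* at 6.78 FPKM. *Nlrx1* (1.39 FPKM), *Nod2* (0.843 FPKM) and *Nlrp3* (0.148 FPKM) were low. The kinase, the adaptor and the protease of the NOD and inflammasome pathways were thus present in resting WT B cells at more than 10 FPKM, whereas the sensors NOD2 and NLRP3 were at less than 1 FPKM.

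**Figure D1:**
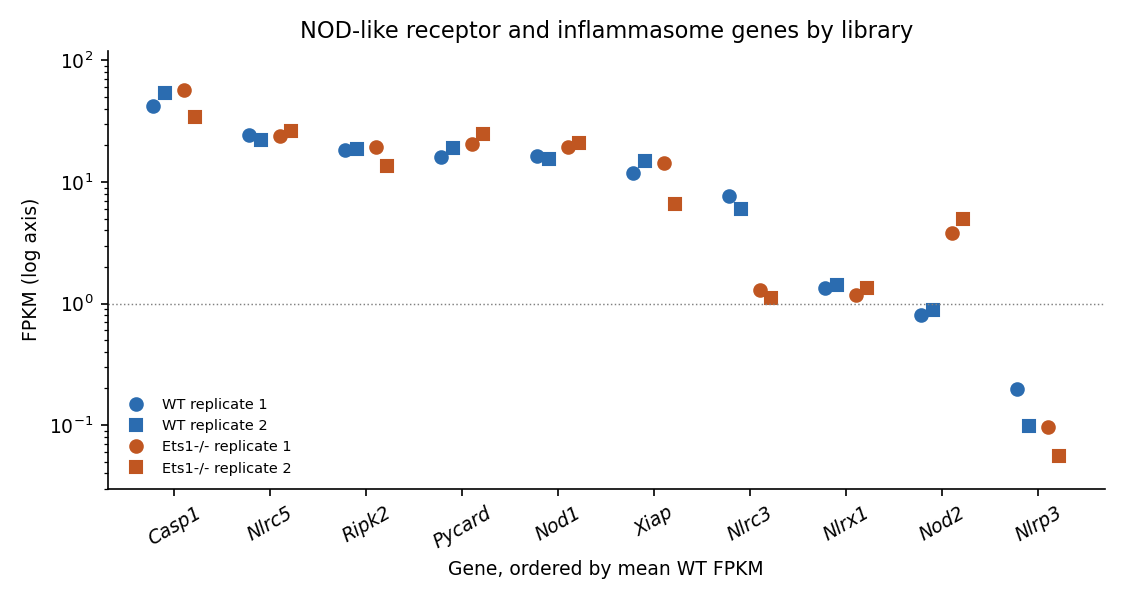
FPKM on a log axis for each of the 10 genes in the 4 libraries, ordered by mean WT level, with circles for replicate 1 and squares for replicate 2 of each genotype and a dotted line at 1 FPKM. *Nod2* moves from 0.808 and 0.879 in WT to 3.84 and 4.998 in *Ets1*-/- B cells, and *Nlrc3* moves from 7.59 and 5.96 to 1.30 and 1.11.

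Differences between genotypes were tested by limma on log2(FPKM + 1) values for the 10949 genes with a mean of at least 1 FPKM in either genotype, and a call required both a BH-adjusted p no higher than 0.05 and a log2 fold change of 1 or more in either direction. Because of the added 1, fold changes of low genes come out too small on this scale. Among the 9 members tested, 2 were called, *Nod2* (higher) and *Nlrc3* (lower), against 1.70% of all genes tested. By direction, 0.877% of all genes tested were called higher and 0.822% lower in *Ets1*-/- B cells. *Nod2* entered the test only through its *Ets1*-/- level, so its passing the filter already required a difference, and *Nlrp3* was below the filter. The median log2 fold change was -0.09 over the 9 members and -0.02 over all genes tested. Non-overlapping genotypes were found for 5 of the 9 members, against 41.6% of all genes tested. Of these 5, *Nod1*, *Nod2* and *Pycard* were higher in both *Ets1*-/- replicates (19.4% of all genes tested) and *Nlrc3* and *Nlrx1* were lower in both (22.2% of all genes tested).

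**Figure D2:**
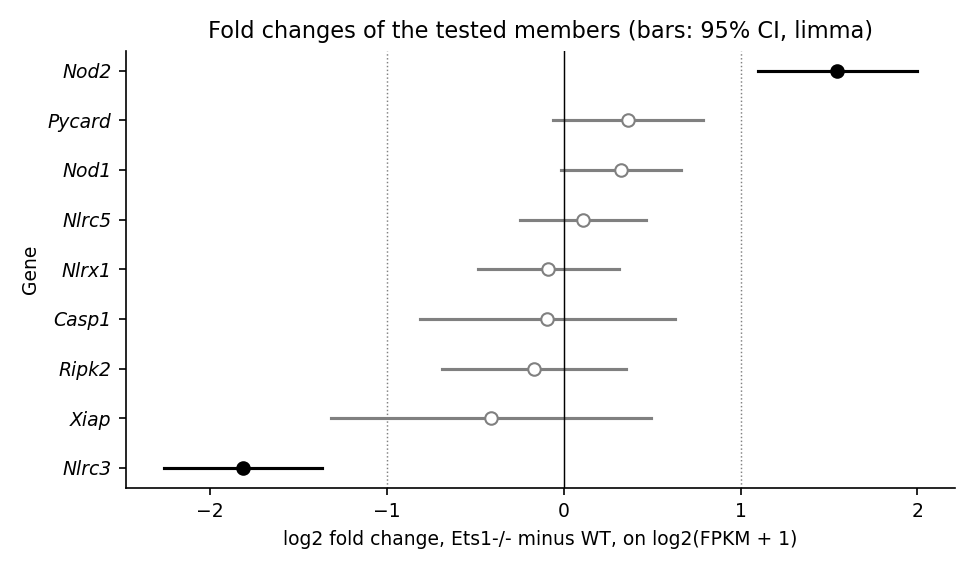
log2 fold change (*Ets1*-/- minus WT, on the log2(FPKM + 1) scale) of the 9 members tested, with bars for the 95% confidence interval from limma, filled black points for genes called changed and dotted lines at a 2-fold change (log2 values of -1 and 1). The intervals of *Nod2* (1.10 to 1.998) and *Nlrc3* (-2.26 to -1.37) lie beyond the dotted lines, and the other 7 intervals include 0.

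*Nod2* was upregulated in *Ets1*-/- B cells. Its FPKM was 0.808 and 0.879 in the WT replicates and 3.84 and 4.998 in the *Ets1*-/- replicates. Both *Ets1*-/- values lay well above both WT values. The mean rose from 0.843 ± 0.0502 to 4.42 ± 0.822 FPKM (SD, n = 2 each), or 5.24-fold. The log2 fold change was 1.55 (standard error 0.18, limma BH-adjusted p = 0.0277). *Nod2* is a plus-strand gene of chromosome 8 (91171214 to 91212373 in mm9). With the fragment step and the exon length of the annotation, its values rest on roughly 79 and 150 fragments in WT and 615 and 421 in *Ets1*-/- B cells. The tested genes on either side, *Snx20* at 11.2 kb and *Cyld* at 8.55 kb, had log2 fold changes of -0.14 (limma BH-adjusted p = 0.852) and -0.11 (limma BH-adjusted p = 0.945). Neither neighbour was called. With any 1 of the 4 libraries left out, the log2 fold change of *Nod2* stayed between 1.39 and 1.70 but its adjusted p lay between 0.0552 and 0.116, so the call needed all 4 libraries. With no filter on low values, where 17315 genes were tested, its adjusted p was 0.0684.

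The related sensor *Nod1* (chromosome 6, 54873936 to 54922606) had FPKM values of 16.3 and 15.6 in WT and of 19.5 and 20.9 in *Ets1*-/- B cells. Both *Ets1*-/- values were above both WT values, and the log2 fold change of 0.32 (95% interval -0.01 to 0.66) came with a BH-adjusted p of 0.398 in limma. *Nod1* thus stayed the more abundant of the NOD sensors. Its level was 20.2 and 17.7 times that of *Nod2* in the WT libraries and 5.09 and 4.18 times in the *Ets1*-/- libraries, so the ratio of the sensors narrowed in both.

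Bases around the transcription start of *Nod2* and of *Nlrc3*, the members that were called, are shown because Ets1 binds DNA at sites with the core GGAA. Each sequence runs from 250 bases before to 50 bases after the start, 5′ to 3′ on the strand of the gene, and was taken from RefSeq on GRCm38.p6, a later build than the mm9 of the expression values. Capitals mark GGAA, or TTCC where the core is on the opposite strand. The *Nod2* promoter lies at chr8:88647097-88647396 (plus strand) and the *Nlrc3* promoter at chr16:3976583-3976882 (minus strand).
Nod2: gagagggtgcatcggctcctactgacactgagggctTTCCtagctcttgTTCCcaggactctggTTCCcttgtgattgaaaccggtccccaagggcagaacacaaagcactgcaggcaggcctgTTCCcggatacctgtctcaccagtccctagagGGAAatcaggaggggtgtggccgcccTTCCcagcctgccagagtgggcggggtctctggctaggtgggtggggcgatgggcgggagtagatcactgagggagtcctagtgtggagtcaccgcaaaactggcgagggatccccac
Nlrc3: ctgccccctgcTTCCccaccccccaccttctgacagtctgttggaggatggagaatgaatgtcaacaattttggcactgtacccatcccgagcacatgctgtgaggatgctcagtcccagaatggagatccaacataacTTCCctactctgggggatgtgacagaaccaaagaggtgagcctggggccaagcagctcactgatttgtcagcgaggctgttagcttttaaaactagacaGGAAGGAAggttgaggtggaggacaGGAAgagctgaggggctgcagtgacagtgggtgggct
The *Nod2* window holds the core 6 times and the *Nlrc3* window 5 times. A promoter table of 32851 such windows has a median of 3 cores, 15.7% of windows have 6 or more, 28.6% have 5 or more and 96.0% have at least 1. The longer motif GGAAGT, searched on both strands and containing the core, is absent from the *Nod2* window and occurs 1 time in the *Nlrc3* window, and 23.8% of all windows hold it. Of the 10 members, 8 had at least 1 window in the table, 13 windows in all, each with between 1 and 9 cores, and 6 of the 13 held GGAAGT. These matches describe letters in the reference sequence, and binding was not measured in the data used here.

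Downstream of the NOD sensors, neither *Ripk2* nor *Xiap* was called. *Ripk2*, the kinase that NOD1 and NOD2 recruit, is located on chromosome 4 between 16049880 and 16090794. Its FPKM was 18.2 and 18.5 in WT and 19.5 and 13.5 in *Ets1*-/- B cells. The *Ets1*-/- replicates fell on either side of the WT replicates, and the log2 fold change of -0.17 (95% interval -0.69 to 0.35) came with a BH-adjusted p of 0.856 in limma. *Xiap*, an inhibitor-of-apoptosis ligase that ubiquitinates RIPK2, lies on chromosome X from 39412856 to 39462833. Its FPKM was 11.9 and 15.0 in WT and 14.3 and 6.62 in *Ets1*-/- B cells. *Ets1*-/- replicate 2 was the low library, at less than the level of each of the other 3. The log2 fold change of *Xiap* was -0.41 with a 95% interval from -1.32 to 0.49, which includes a 2-fold fall, and a BH-adjusted p of 0.758 in limma. Between the *Ets1*-/- replicates, *Xiap* differed by -1.01 on the log2(FPKM + 1) scale (replicate 2 minus replicate 1), at percentile 2.3 of that difference among all genes tested, and *Ripk2* by -0.50, at percentile 12.6. Without *Ets1*-/- replicate 2 the log2 fold change of *Xiap* was 0.09 and that of *Ripk2* 0.08, so the sign of both rested on that library.

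Among the regulatory NLRs, *Nlrc3* was downregulated in *Ets1*-/- B cells, while *Nlrc5* and *Nlrx1* were not called. NLRC3 is an inhibitor of NF-κB and of nucleic acid sensing that is known from lymphocytes and myeloid cells. *Nlrc3* had an FPKM of 7.59 and 5.96 in WT and of 1.30 and 1.11 in *Ets1*-/- B cells. Both *Ets1*-/- values were far below both WT values. The mean fell from 6.78 ± 1.16 to 1.20 ± 0.137 FPKM (SD, n = 2 each), so WT B cells held 5.63 times as much. The log2 fold change was -1.81 (standard error 0.18, limma BH-adjusted p = 0.0166). It is a minus-strand gene of chromosome 16 (3946933 to 3976632 in mm9), and its values rest on roughly 607 and 832 fragments in WT and 171 and 76 in *Ets1*-/- B cells. Its tested neighbours *Cluap1*, 5.79 kb away, and *Slx4*, 2.47 kb away, had log2 fold changes of -0.06 (limma BH-adjusted p = 0.932) and -0.15 (limma BH-adjusted p = 0.809). Leaving out any 1 library kept the log2 fold change of *Nlrc3* between -1.97 and -1.66. Its adjusted p was 0.0377 without WT replicate 2 and lay between 0.0592 and 0.0951 when one of the other 3 libraries was left out. With no filter on low values its adjusted p was 0.0611.

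*Nlrc5*, the activator of MHC class I genes, lies on chromosome 8 from 96996663 to 97051172. It had an FPKM of 24.1 and 22.3 in WT and of 23.8 and 26.5 in *Ets1*-/- B cells, and the genotypes overlapped. Its log2 fold change of 0.11 had a 95% interval from -0.25 to 0.46, which leaves out a 2-fold change in either direction (limma BH-adjusted p = 0.868). *Nlrc5* was 3.18 and 3.75 times as abundant as *Nlrc3* in the WT libraries and 18.3 and 23.9 times in the *Ets1*-/- libraries. *Nlrx1*, whose product is the NLR of mitochondria, lies on chromosome 9 from 44060796 to 44076682. It was near 1 FPKM throughout, with 1.35 and 1.43 in WT and 1.17 and 1.33 in *Ets1*-/- B cells. Both *Ets1*-/- values were lower, but the gap was narrower than the spread between the *Ets1*-/- replicates, and the log2 fold change of -0.09 (95% interval -0.49 to 0.31) came with a BH-adjusted p of 0.910 in limma.

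Of the inflammasome members, 2 were tested in limma and neither was called or had an unadjusted p under 0.05. *Pycard* (chromosome 7, 135135617 to 135137381) had FPKM values of 15.9 and 18.9 in WT and of 20.6 and 24.7 in *Ets1*-/- B cells. The *Ets1*-/- values were higher without overlap, and the log2 fold change of 0.36 (95% interval -0.06 to 0.79) came with a BH-adjusted p of 0.461 in limma. *Casp1* (chromosome 9, 5298517 to 5307265) had FPKM values of 42.0 and 53.5 in WT and of 57.3 and 34.3 in *Ets1*-/- B cells, so the *Ets1*-/- replicates held both the highest and the lowest value. The log2 fold change was -0.09 (95% interval -0.81 to 0.63) with a BH-adjusted p of 0.963 in limma, and it was 0.27 without *Ets1*-/- replicate 2 and 0.08 without WT replicate 2. *Nlrp3* (chromosome 11, 59355070 to 59380458) had FPKM values of 0.197 and 0.0982 in WT and of 0.0958 and 0.0562 in *Ets1*-/- B cells. These values rest on roughly 16, 14, 12 and 4 fragments, and a difference between the genotypes was not detectable at this depth. The inflammasome sensor was thus near the limit of these libraries in both genotypes, while its adaptor and its protease were above 10 FPKM in each library. *Casp1* lies 27.1 Mb and *Nlrx1* 11.5 Mb from *Ets1* on the same chromosome.

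The other genes of the pathway were taken from 6 lists, of which 86 genes were in the files and 61 were tested. Of these 61, 3 were called, all lower in *Ets1*-/- B cells (*Nlrc4*, *Ccl3* and *Ccl4*), against 0.822% of all genes tested called lower. An unadjusted p under 0.05 was found for 7, a share close to the 13.3% of all genes tested. The median log2 fold change of the 61 was 0.00, with 31 above and 30 below 0. With a library left out, *Ccl3* alone of the 3 was called without WT replicate 1, *Nlrc4* alone without *Ets1*-/- replicate 2, and 0 of the 3 without WT replicate 2 or *Ets1*-/- replicate 1 or with no filter on low values.

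**Figure D3:**
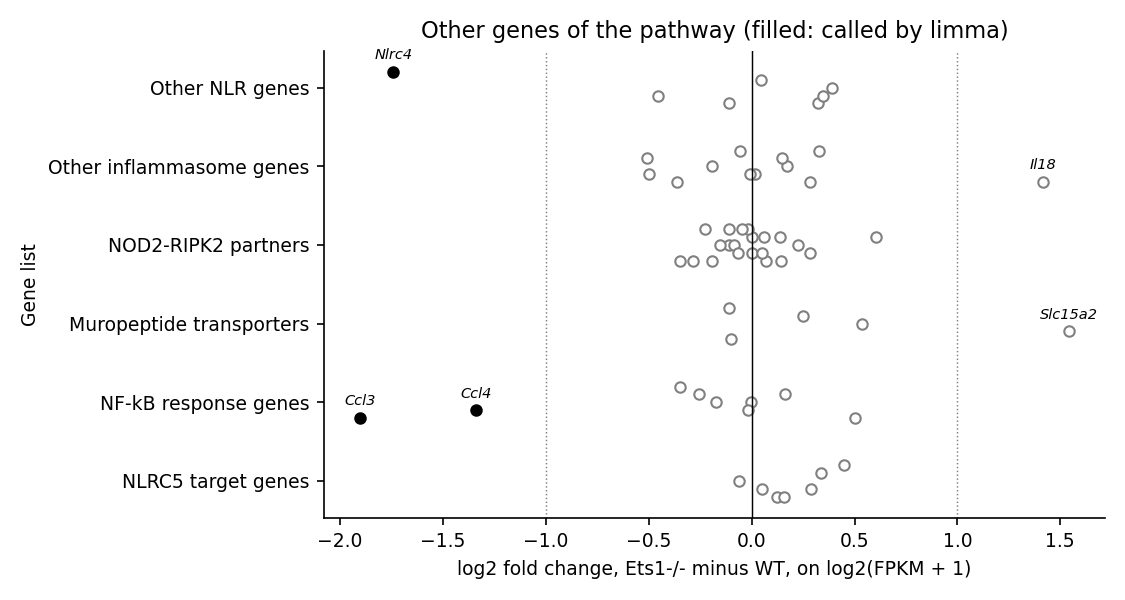
log2 fold change (*Ets1*-/- minus WT, on the log2(FPKM + 1) scale) of the 61 tested genes in the 6 lists, with 1 point per gene, filled where the gene was called and with dotted lines at a 2-fold change; points are spread vertically within a list only for legibility. *Nlrc4* (-1.74), *Ccl3* (-1.90) and *Ccl4* (-1.34) are the filled points, and the open points of *Il18* (1.42) and *Slc15a2* (1.54) lie beyond a 2-fold rise.

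Of the other NLR genes, 7 were tested and 1, *Nlrc4*, was called. *Nlrc4* encodes the inflammasome protein that responds, through NAIP partners, to bacterial flagellin and secretion system proteins. Its FPKM was 11.2 and 10.8 in WT and 2.34 and 2.88 in *Ets1*-/- B cells, without overlap. The mean fell from 11.03 ± 0.281 to 2.61 ± 0.379 FPKM (SD, n = 2 each), a log2 fold change of -1.74 (SE 0.15, limma BH-adjusted p = 0.0137). *Nlrc4* was thus more abundant than *Nlrc3* in each of the 4 libraries. *Ciita*, the activator of MHC class II genes, was the most abundant gene of this list, at 157 and 132 FPKM in WT and 148 and 220.0 FPKM in *Ets1*-/- B cells, and overlapped between genotypes. The NAIP partners are near-identical copies whose reads the counting could split, so their values are uncertain. *Naip5* was at 2.38 and 4.33 FPKM in WT and 7.06 and 2.83 FPKM in *Ets1*-/- B cells, and *Naip2* at 2.42 and 3.19 FPKM in WT and 2.24 and 1.35 FPKM in *Ets1*-/- B cells. Of the 23 NLR genes of this list in the files, 16 stayed below 1 FPKM in every library and 9 were listed at 0 in all 4.

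Of 12 tested genes among the other inflammasome sensors, caspases, effectors and regulators, 0 were called by limma, and 3 had an unadjusted p under 0.05. *Il18*, the cytokine that caspase-1 matures, was closest to the threshold, with 4.33 and 4.45 FPKM in WT and 16.1 and 11.1 FPKM in *Ets1*-/- B cells. The *Ets1*-/- mean was 3.10 times the WT mean, without overlap, and the log2 fold change of 1.42 (standard error 0.21) came with a BH-adjusted p of 0.0507 in limma. *Il18* lies on chromosome 9 from 50383378 to 50389942, 17.8 Mb from *Ets1*. It passed the threshold with a pseudocount of 0.5 (limma BH-adjusted p = 0.0483). In limma its BH-adjusted p was 0.0127 with robust variance estimation and 0.1065 with no filter on low values. The other fits on all 4 libraries lay between these values, except a crossed pairing of replicates that was chosen after seeing the data. With any 1 library left out, the log2 fold change of *Il18* lay between 1.17 and 1.67. *Casp8*, an apoptotic protease, had a log2 fold change of -0.51 (limma BH-adjusted p = 0.271), and *Card6* one of -0.50 (limma BH-adjusted p = 0.264). The most abundant genes of this list were *Txnip*, an NLRP3-binding protein, at 265 and 252 FPKM in WT and 209 and 315 FPKM in *Ets1*-/- B cells, the pore-forming effector *Gsdmd* at 66.0 and 61.8 FPKM in WT and 69.6 and 92.8 FPKM in *Ets1*-/- B cells, and *Pstpip1*, with mean levels of 51.8 and 63.5 FPKM.

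None of the 21 tested NOD2-RIPK2 signalling partners was called by limma, and 0 had an unadjusted p under 0.05. Their log2 fold changes lay between -0.35 and 0.60. *Tnfaip3*, which encodes the NF-κB inhibitor A20, had 27.4 and 31.0 FPKM in WT and 58.3 and 34.4 FPKM in *Ets1*-/- B cells (log2 fold change 0.60, limma BH-adjusted p = 0.450). *Ets1*-/- replicate 1 was its high library, and the log2 fold change was 0.23 without it and 0.98 without *Ets1*-/- replicate 2. *Tab1*, a subunit of the TAK1 kinase complex, had a log2 fold change of -0.35 and the ubiquitin ligase gene *Itch* one of -0.29. Both depended on which *Ets1*-/- library was kept, with -0.13 for *Tab1* without replicate 1 and -0.57 without replicate 2, and -0.52 for *Itch* without replicate 1 and -0.05 without replicate 2. *Birc3*, which encodes a ubiquitin ligase for RIPK2, *Rbck1*, a subunit of the linear ubiquitin ligase, and the kinase gene *Ikbkb* were the most abundant in WT, with means of 118, 88.9 and 88.7 FPKM, and their log2 fold changes were -0.11, 0.23 and -0.08.

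Muropeptide transporters, which bring NOD ligands into the cytosol, gave 0 calls by limma among 5 tested, with 1 unadjusted p under 0.05. *Slc15a4* had a mean of 70.2 FPKM in WT and 84.1 FPKM in *Ets1*-/- B cells, and *Slc46a3* a mean of 11.2 and 10.3 FPKM. *Slc15a3* was at 10.5 and 8.41 FPKM in WT and 12.4 and 16.02 FPKM in *Ets1*-/- B cells (log2 fold change 0.54, limma BH-adjusted p = 0.318). *Slc15a2* varied too widely between replicates for its fold change to be read, at 0.261 and 5.33 FPKM in WT and 13.9 and 3.56 FPKM in *Ets1*-/- B cells.

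Among 9 tested NF-κB response genes, *Ccl3* and *Ccl4* were called. Both encode inflammatory chemokines. *Ccl3* was at 7.37 and 9.05 FPKM in WT and 1.63 and 1.28 FPKM in *Ets1*-/- B cells, a log2 fold change of -1.90 (SE 0.17, limma BH-adjusted p = 0.0144). *Ccl4* was at 6.18 and 7.81 FPKM in WT and 2.16 and 2.12 FPKM in *Ets1*-/- B cells, a log2 fold change of -1.34 (limma BH-adjusted p = 0.0349). The inhibitor gene *Nfkbia* had 191 and 161 FPKM in WT and 219 and 283 FPKM in *Ets1*-/- B cells (limma BH-adjusted p = 0.391), and the subunit genes *Nfkb1* and *Nfkb2* had log2 fold changes of 0.16 and -0.35. Targets of NLRC5 gave 0 calls by limma among 7 tested, and 0 unadjusted p under 0.05. Their log2 fold changes lay between -0.06 (*H2-K1*) and 0.45 (*Psmb9*), with *H2-T23* at 0.34, *Tapbp* at 0.29, *B2m* at 0.12 and *H2-D1* at 0.05, and the signs of *B2m* and *H2-D1* were negative after quantile normalization. Class I genes share sequence to differing degrees, so *H2-K1*, *H2-D1* and *H2-T23* values are uncertain.

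Markers of other cell types also differed between the genotypes. In bulk RNA, fewer cells of a type and less RNA per cell cannot be told apart. Neutrophil markers had a summed level of 121 and 99.4 FPKM in the WT replicates and of 2591 and 713 FPKM in the *Ets1*-/- replicates. Of 14 such markers, 14 were above 0 in every library. Without overlap, 12 were higher in *Ets1*-/- B cells, against 19.4% of all genes tested. The 3 called were *Ngp*, *Ltf* and *Camp*, against 0.877% of all genes tested called higher. The count without overlap was partly set by the filter. *Mmp8*, *Mmp9*, *Cd177*, *Elane* and *Mpo* had WT means below 1 FPKM and entered the test only through their *Ets1*-/- level. *Nod2* was higher in the same libraries, with the other order between the *Ets1*-/- replicates. The neutrophil sum in replicate 1 was 3.63 times that in replicate 2, whereas *Nod2* in replicate 1 was 0.767 times its level in replicate 2. Among the neutrophil markers, only the receptor genes *Csf3r* and *Cxcr2* overlapped between the genotypes, with log2 fold changes of -0.00 and 0.08. The 14 monocyte and macrophage markers summed to 81.2 and 45.3 FPKM in WT and to 170 and 109 FPKM in *Ets1*-/- B cells. Of the 8 that were tested, 3 (*Emr1*, *Lyz2* and *Lyz1*) were higher without overlap, against 19.4% of all genes tested. *Csf1r*, *Cd68* and *Ly6c2* had log2 fold changes of -0.16, -0.06 and -0.07. The 1 of these 8 called was *Emr1* (F4/80), at 2.35 and 2.63 FPKM in WT and 23.5 and 37.2 FPKM in *Ets1*-/- B cells. *Emr1* in *Ets1*-/- replicate 1 was 0.630 times its level in replicate 2, the same order as *Nod2*. The monocyte and macrophage sum in *Ets1*-/- replicate 1 was 1.56 times that in replicate 2. The part of these cells in the *Nod2* result was not tested.

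**Figure D4:**
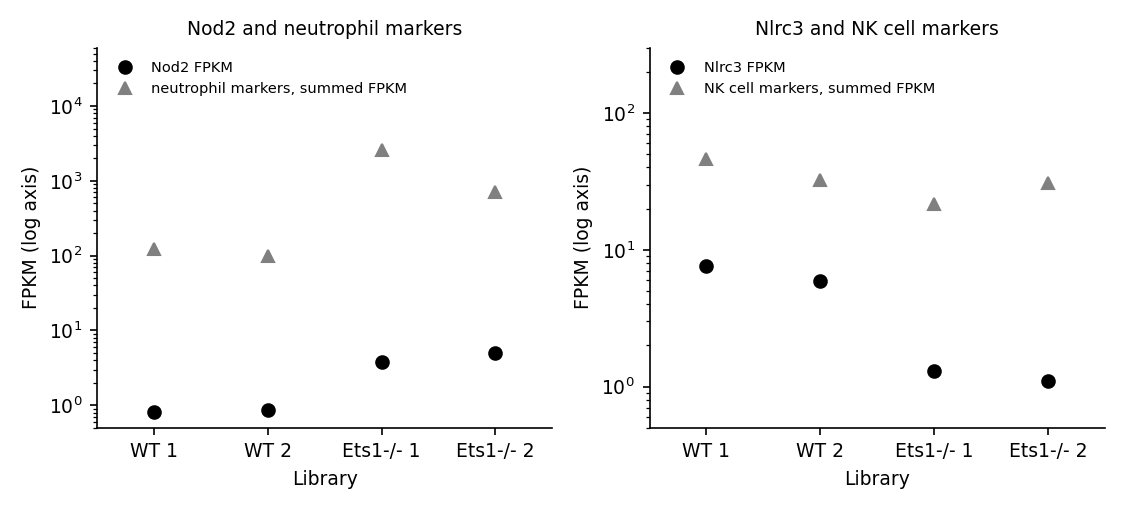
FPKM on a log axis in each library for *Nod2* with the summed FPKM of 14 neutrophil markers (left) and for *Nlrc3* with the summed FPKM of 8 NK cell markers (right), circles for the gene and triangles for the sum. The neutrophil sum is higher in *Ets1*-/- replicate 1 (2591) than in replicate 2 (713), while *Nod2* is lower in replicate 1 (3.84) than in replicate 2 (4.998).

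Most NK cell markers had lower values in *Ets1*-/- B cells, as did *Nlrc3*, *Nlrc4*, *Ccl3* and *Ccl4*. The sum of the NK cell markers was 46.3 and 32.5 FPKM in WT and 21.7 and 30.6 FPKM in *Ets1*-/- B cells, and 8 of 8 were above 0 in every library. Of the 8, 6 were lower without overlap, against 22.2% of all genes tested. Of these NK cell markers, 0 were called by limma and 5 had an unadjusted p under 0.05, against 13.3% of all genes tested. Both counts were partly set by the filter. *Ncr1*, *Klrb1c*, *Klrk1* and *Prf1* had *Ets1*-/- means below 1 FPKM and entered the test only through their WT level. *Ncr1*, which marks NK cells, was at 2.42 and 0.957 FPKM in WT and at 0.0223 and 0.128 FPKM in *Ets1*-/- B cells, whereas *Nkg7* had a log2 fold change of 0.20. *Eomes* had a log2 fold change of 0.22 and was higher in both *Ets1*-/- replicates, and it entered the test only through its *Ets1*-/- level. T cell markers summed to 128 and 107 FPKM in WT and to 98.9 and 116 FPKM in *Ets1*-/- B cells, with *Cd3e* at 7.62 and 6.67 FPKM against 7.58 and 7.74 FPKM, and 1 of 11 was called, *Thy1* (log2 fold change -2.02). The part of NK or T cells in the results on *Nlrc3*, *Nlrc4*, *Ccl3* and *Ccl4* was not tested. Summed dendritic cell markers went from between 5.34 and 6.59 FPKM in WT to between 10.8 and 10.9 FPKM in *Ets1*-/- B cells. Of the 4 tested, 3 were not called and 1 was, *Cd209a* (log2 fold change 1.36, limma BH-adjusted p = 0.0355). With a WT mean of 0.733 FPKM, *Cd209a* entered the test only through its *Ets1*-/- level, so its passing the filter already required a difference. *Cd209a* was at 0.880 and 0.586 FPKM in WT and at 3.28 and 3.60 FPKM in *Ets1*-/- B cells. The part of dendritic cells in the *Nod2* result was not tested. Summed erythroid markers went from between 3.98 and 6.30 FPKM in WT to between 27.9 and 64.4 FPKM in *Ets1*-/- B cells. Plasma cell markers summed to between 342 and 404 FPKM in WT and between 410 and 442 FPKM in *Ets1*-/- B cells, and 0 of 6 were called by limma, with 3 unadjusted p under 0.05. Of these 6, 3 had log2 fold changes above 0 and 3 below. *Mzb1* held most of the sum, at 175 and 215 FPKM in WT and 272 and 291 FPKM in *Ets1*-/- B cells, while *Xbp1* (-0.36) and *Irf4* (-0.85) had negative log2 fold changes.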

How the data were processed

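RNA-seq of sorted splenic follicular B cells was analysed from 2 WT and 2 *Ets1*-/- libraries. The authors aligned the reads to mm9 with TopHat2 (version 2.0.13 per the submitters' processing notes), ran Cuffdiff on the alignments, and the FPKM values it gave were deposited, 1 table for each library. The gene annotation, the Cuffdiff version and any scaling between libraries are not given in the sources used here. The counting was not stated to use strand, so antisense reads cannot be told apart. Of 23309 entries per file, 4 with repeated symbols were left out. Read counts are not part of the files, so depth was estimated from the mode of FPKM times exon length (kb) among values below 0.3, and fragment numbers are approximate.

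Positions and exon lengths are those of GENCODE M1 on NCBIM37 (mm9), in which 20978 symbols (90.0%) matched a single gene. Values of log2(FPKM + 1) entered a linear model in limma (version 3.58.1, R version 4.3.3; lmFit, eBayes with trend, residual degrees of freedom 2, prior degrees of freedom 3.10) for 10949 genes, adjusted by the Benjamini-Hochberg method, and tested on simulated data. An exact permutation test of 2 against 2 cannot go below p = 0.333, so none was used. The methods call the replicates biological without saying how many animals stand behind each, and p-values measure the spread between these samples.

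The members and all gene lists were chosen with earlier results of these data known. Named genes were the 10 members, *Ets1*, every called gene of the lists, the 3 genes of each list with the highest WT mean and the 3 with the largest fold change, and marker genes at 0 or highest in their list. *Snx20*, *Cyld*, *Cluap1* and *Slx4*, as neighbours, and *Cd3e*, *Csf3r*, *Cxcr2*, *Ncr1*, *Emr1*, *Cd209a*, *Thy1*, *Ngp*, *Ltf*, *Camp*, *Lyz1*, *Csf1r*, *Cd68*, *Ly6c2*, *Xbp1* and *Irf4*, as markers, were chosen after their values were seen. The markers *Mmp8*, *Mmp9*, *Cd177*, *Elane*, *Mpo*, *Klrb1c*, *Klrk1*, *Prf1* and *Eomes* were also chosen after their values were seen. Alternatives covered the pseudocount, the filter, a replicate block, quantile and upper-quartile scaling, robust variance estimation and each replicate left out in turn.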

Additional observations from a re-analysis of the deposited data

How the results depend on the processing

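Of all genes tested, 186 were called. With no filter on low values 75 were called, with robust variance estimation 305, and with a replicate left out in turn between 99 and 116. The count of members called, 2, was 1 when a mean of at least 1 FPKM was asked of both genotypes, which removes *Nod2* from the test, and 0 with no filter on low values (3 members had an unadjusted p under 0.05 in limma, no other tool was run), where more genes were tested. With a replicate left out it was between 0 and 1. Both *Nod2* and *Nlrc3* were called with pseudocounts of 0.1 and 0.5, quantile or upper-quartile scaling, robust variance estimation and the replicate block. Of the 3 other pathway genes called, 0 were called with no filter, where 7 pathway genes had an unadjusted p under 0.05 in limma. In no fit with a replicate left out did all 3 stay called. *Il18* joined them, making 4, with either other pseudocount, with the filter asked of both genotypes, with either scaling, with robust variance estimation and with the block. The replicate numbers do not pair the samples by design, and same-numbered libraries deviated from their group means with a correlation of -0.21 across genes. With the replicate block 266 genes were called, and with the crossed pairing, chosen after seeing the data, 409 genes, 2 members and 5 pathway genes.

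The sign of 8 of 41 single genes changed under some alternative, none of the 8 was called, and the cause was not tested. With a replicate left out the log2 fold change ranged from -0.42 to 0.0849 for *Ripk2*, -0.45 to 0.27 for *Casp1*, -0.91 to 0.0911 for *Xiap*, -0.15 to 0.93 for *Naip5*, -0.30 to 0.28 for *Txnip*, -0.0935 to 0.34 for *B2m*, -0.15 to 0.021 for *H2-K1* and -0.0718 to 0.17 for *H2-D1*. Upper-quartile scaling gave *Txnip* 0.0131, and quantile normalization gave *B2m* -0.13 and *H2-D1* -0.0426. Among the 10 members, *Nlrp3* rests on the fewest fragments, between 4 and 16 per library.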
